A study of Mus musculus with 2 samples.

Results

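The T-box transcription factors measured in the mouse mandibular prominence were described by 9 of their genes, Tbx1, Tbx2, Tbx3, Tbx4, Tbx5, Tbx15, Tbx18, Tbx20 and Tbx22, taken by name from 30723 genes in all. The mandibular prominence is the paired facial swelling that forms the lower jaw and carries the early tongue. The series holds 2 RNA-seq libraries, 1 per group, each from 10 pooled embryos on a mixed CD1 background. The control embryos are labelled as controls with no genotype given. The mutant embryos, Kif3a f/f ; Wnt1-Cre, lack the kinesin-2 motor subunit Kif3a, which builds primary cilia, in the neural crest and its descendants, where Wnt1-Cre acts, so epithelium, muscle, vessels and blood keep the gene. Both groups are labelled E11.5, while the submitters' naming of the mutant table gives day 11 and another sequencing run. Run, any difference in stage and genotype therefore cannot be told apart. The series title names GLI processing in the neural crest and tongue development as the question behind the comparison.

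T-box factors bind DNA through a shared domain, the T-box, and act as activators or repressors of patterning genes. In the pharyngeal arches Tbx1, whose loss causes DiGeorge syndrome, works in the mesodermal core and the epithelia, while Tbx2 and Tbx3 are repressors of the mesenchyme that respond to BMP signals. Tbx22 is the gene of X-linked cleft palate with a tethered tongue. Tbx15 and Tbx18 are close relatives that pattern the limb, skin, skull and body wall mesenchyme. Tbx4 and Tbx5 are known from hindlimb and forelimb, and Tbx5 and Tbx20 from the heart.

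The T-box itself is shown first, because the members must be told apart by their reads before their values can be compared. A coding stretch of 90 bases inside 1 exon of Tbx15 was chosen as the one with the highest summed identity to Tbx18, Tbx22 and Tbx1. It was then matched to all other members, and the lines give it for Tbx15 and these 3 relatives of the Tbx1 subfamily. Capitals mark bases that differ from Tbx15.
Tbx15: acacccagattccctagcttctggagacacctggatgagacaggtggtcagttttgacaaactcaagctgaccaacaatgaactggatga
Tbx18: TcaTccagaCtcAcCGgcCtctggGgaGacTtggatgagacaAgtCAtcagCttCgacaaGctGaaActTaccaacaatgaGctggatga
Tbx22: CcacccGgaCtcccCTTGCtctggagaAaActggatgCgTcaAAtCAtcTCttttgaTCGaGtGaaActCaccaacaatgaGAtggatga
Tbx1: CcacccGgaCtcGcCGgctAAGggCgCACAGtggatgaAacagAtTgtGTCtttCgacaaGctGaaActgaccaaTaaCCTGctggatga
On GRCm38 these lie at chr3:99314816-99314905 on the plus strand (exon 4 of 8), chr9:87724312-87724401 on the minus strand (exon 4 of 8), chrX:107680183-107680272 on the plus strand (exon 5 of 9) and chr16:18584094-18584183 on the minus strand (exon 3 of 7). Tbx18 shared 70 of the 90 bases with Tbx15, Tbx22 63 and Tbx1 60. Identity to Tbx15 ran from 56.7% in Tbx2 to 68.9% in Tbx20 in the members not shown. Identical runs were then sought over whole transcripts, untranslated ends included, with 1 transcript per member, the one with the longest coding sequence. Such runs need not lie in the T-box. Among all 36 pairs of members, the longest run was 42 bases, between Tbx5 and Tbx22, and the median run was 17. How reads were assigned between members was not tested. For Tbx15 and Tbx18 the longest run was 23. No transcript of another gene in the deposited tables overlapped a member. GENCODE places antisense genes over Tbx3 (Tbx3os1) and Tbx15 (Gm43120), and a gene model awaiting experiment opposite Tbx18 (D030062O11Rik). These have no entry under those names in the tables, and the strandedness of the libraries is not given in the sources used here, so reads from both strands may be pooled in these 3 genes.

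Values are FPKM, in which fragment numbers are divided by the length of the transcript and the size of the library, summed over the transcripts of a gene. There are no replicates, so no difference between the groups could be tested. Intervals are 95% counting intervals on approximate fragment numbers (exact Poisson for a level, exact Clopper-Pearson for a ratio). They leave out the variation between embryos, dissections and library preparations. The libraries held about 24700000 (control) and 24500000 (mutant) fragments. Kif3a itself gave 11.46 FPKM in control and 5.395 in mutant RNA, from tissue that also holds cells outside the neural crest. Of the mesenchyme markers chosen for the tissue check (Prrx1, Prrx2, Twist1, Hand2, Dlx5, Dlx6, Msx1 and Alx4), 8 of 8 were present, with a summed level of 665 and 619 FPKM. Of 5 limb Hox markers, 4 were listed at 0 in both libraries and the summed level was 0.0198 and 0.0343 FPKM.

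Tbx2 and Tbx3 made up most of the T-box message in both libraries. The FPKM of the 9 genes added up to 88.0 (control) and 88.9 (mutant), and Tbx2 with Tbx3 held 79.6% and 89.0% of these sums. In the control the order of levels was Tbx2, Tbx3, Tbx1, Tbx22, Tbx15, Tbx4, Tbx18, Tbx5 and Tbx20. The intervals of Tbx15 (2.13 to 2.79) and Tbx4 (2.003 to 2.71) overlapped, as did those of Tbx5 and Tbx20, and all other neighbours were apart. In the mutant the order was Tbx2, Tbx3, Tbx1, Tbx22, Tbx4, Tbx18, Tbx15, Tbx20 and Tbx5. There the intervals of Tbx1 and Tbx22 overlapped, and so did those of Tbx18, Tbx15 and Tbx20.

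**Figure D1:**
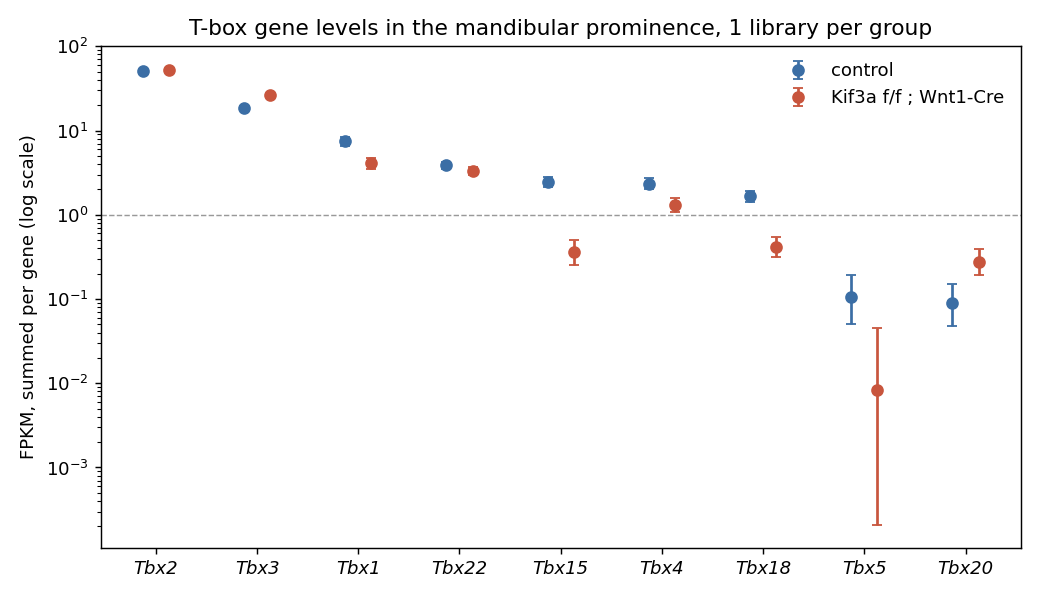
FPKM of each T-box gene (log axis) in the control library (blue) and the mutant library (red), with 95% exact Poisson counting intervals and a dashed line at 1 FPKM. Tbx15 and Tbx18 stand above the line in the control (2.45 and 1.66) and below it in the mutant (0.361 and 0.419), while the points of Tbx2 lie side by side.

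To set the members beside all genes, a log2 ratio, log2((mutant FPKM + 1) / (control FPKM + 1)), was taken for the 12259 genes whose FPKM averaged at least 1. On this scale low genes appear to differ by less than they do. The median gene had -0.13, and the 25th and 75th percentiles were -0.30 and 0.06. TPM-like scaling put the median gene at 0.41, so counts above and below 0 hold for the deposited scaling only, and distances from the median gene are given where the scaling matters. Unless the FPKM ratio is named, 2-fold means a log2 ratio of at least 1 in size on this scale, which holds back genes with low FPKM. The 2-fold counts split into 94 higher and 167 lower genes as deposited, and into 581 and 85 with TPM-like scaling. Of the members, 7 passed the filter of a mean FPKM of at least 1, and Tbx5 and Tbx20 did not. Tbx15 and Tbx18 passed it through the control library alone. At least 2-fold lower were 1.36% of all genes and 1 member, Tbx15. At least 2-fold higher were 0.767% of all genes and 0 members. With a pseudocount of 0.1 these shares were 2.55% and 1.46%, and Tbx18 joined Tbx15 among the lower genes. By the FPKM ratio itself, with no pseudocount, 2.84% of all genes were at least 2-fold lower and 1.56% at least 2-fold higher, against 2 members (Tbx15 and Tbx18) and 0. Below 0 lay 67.9% of all genes. Of the 7 members, 5 lay below the median gene and 2, Tbx2 and Tbx3, above it.

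**Figure D2:**
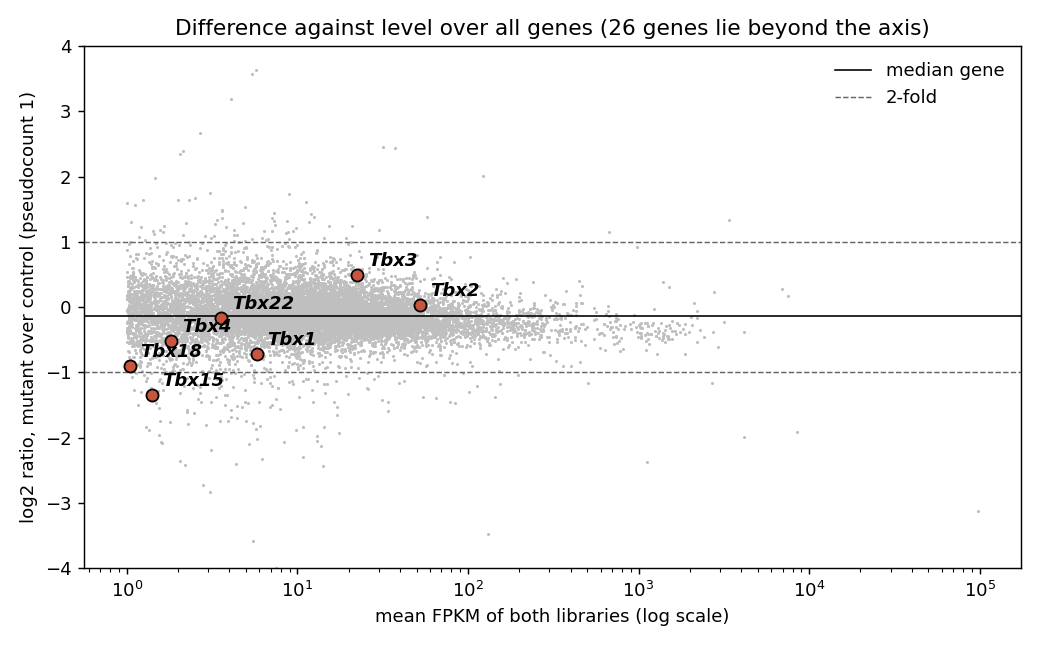
Log2 ratio (mutant over control) against mean FPKM on a log axis for 12259 genes (grey, with 26 beyond the axis) and the 7 T-box genes over the filter (red). Solid line, the median gene at -0.13; dashed lines, 2-fold on this scale. Tbx15 lies under the lower dashed line and Tbx18 (-0.91) just above it, at low mean levels where the grey cloud is wider.

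Tbx15 and Tbx18 had the lowest log2 ratios of the 7 members over the filter. Tbx15 (chromosome 3, 99253760 to 99354260) has 1 deposited transcript, of 3567 bases, and gave 2.45 FPKM in control RNA against 0.361 in mutant RNA, from about 220 and 35 fragments. The mutant value was 6.77-fold lower (4.73 to 9.97), a log2 ratio of -1.34. In all, 84 of the 12259 genes had a lower log2 ratio. Among the 1244 genes with a mean FPKM from 1 to under 2, of which 2.33% were at least 2-fold lower, 10 had a lower one. Tbx18 (chromosome 9, 87702800 to 87731260), a repressor of the T-box family, likewise has 1 transcript, of 4679 bases. It gave 1.66 FPKM in control RNA against 0.419 in mutant RNA, from about 196 and 53 fragments, 3.96-fold lower (2.91 to 5.47) with a log2 ratio of -0.91. Of the same 1244 genes, 39 had a lower log2 ratio than Tbx18. Both genes passed the filter through the control library alone. Their place among these genes thus depends on the control value that also enters the log2 ratio. The counting intervals of the 2 ratios overlapped, and a difference between Tbx15 and Tbx18 in this size was not tested. After the trend of log2 ratio with transcript length was removed, the values were -1.25 and -0.89. In pooled tissue, fewer cells that express a gene and less RNA per cell cannot be told apart.

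Markers of several other cell types were lower in the mutant pool as well. Of 7 endothelial markers, 7 had log2 ratios below 0 (-0.78 to -0.04) and 5 lay below the median gene, and their summed level was 56.4 and 38.5 FPKM. All 6 red blood cell markers were at least 2-fold lower, with sums of 22160 and 5648 FPKM. Of 6 macrophage markers 5 passed the filter, all below 0 and 4 below the median gene, with sums of 15.01 and 8.46 FPKM. Of 6 neuron markers 2, Tubb3 and Nefl, passed the filter, both below the median gene (-0.44 and -0.56), and the sums were 13.5 and 8.33 FPKM. The 4 Hox markers of the second arch, none over the filter, summed to 2.43 and 1.24 FPKM. The part of these cells in the values of Tbx15 and Tbx18 was not tested. The mesenchyme markers ranged from -0.41 to 0.36.

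Tbx1 was lower to a smaller degree. The gene (chromosome 16, 18581713 to 18590671, minus strand) gave 7.43 FPKM in control RNA against 4.12 in mutant RNA, from about 310 and 179 fragments. It was 1.80-fold lower (1.495 to 2.18), with a log2 ratio of -0.72, and 391 genes had a lower one. Both deposited transcripts went the same way. The one of 1777 bases, with 87.4% of the control FPKM, stood at 6.49 and 3.69, and the one of 780 bases at 0.937 and 0.431, the latter on only about 18 and 9 fragments. Short transcripts had lower ratios in general here, and with the length trend removed Tbx1 had -0.48.

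Tbx1 is known from head muscle precursors and the pharyngeal endoderm, and the markers of both were compared. Of 6 muscle precursor markers, 5 passed the filter, 4 of them below both 0 and the median gene, with a range from -2.19 to 0.38. Past 2-fold lower were 2 on the log2 scale, Myog and Myod1, and by the FPKM ratio Msc as well. Their levels summed to 30.6 (control) and 24.2 FPKM (mutant). Of 6 endoderm markers 4 passed the filter, with a range from -1.14 to 0.39. Below both 0, where 67.9% of all genes lay, and the median gene were 3 of them. On the log2 scale and by the FPKM ratio 1 was at least 2-fold lower, and the sums were 12.8 and 8.93 FPKM. How far these cells bear on the value of Tbx1 was not tested.

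The genes upstream of Tbx1 did not share a direction. Of 9 listed regulators 8 passed the filter, with 4 above and 4 below 0, 1 at least 2-fold higher and 1 at least 2-fold lower. By the FPKM ratio 2 were at least 2-fold lower, Foxc2 and Aldh1a2. The median was 0.00. Shh, the ligand that maintains Tbx1 in the arches through forkhead factors, stood at 4.06 and 9.39 FPKM, 2.31 times the control (2.01 to 2.67). Foxc2, a forkhead activator of Tbx1, stood at 10.94 and 3.22 FPKM, a ratio of 0.294 (0.253 to 0.340). Aldh1a2, which makes retinoic acid, a repressor of Tbx1, had a log2 ratio of -0.95. Of 16 genes reported downstream of Tbx1, 15 passed the filter, 7 above and 8 below 0, with a median of -0.11. None reached 2-fold on the log2 scale, while by the FPKM ratio 3 were at least 2-fold lower (Msc, Cyp26b1 and Nkx2-5) and 0 higher. Msc, a factor of head muscle precursors, was lowest at 2.80 and 0.939 FPKM. Cyp26b1, an enzyme that breaks down retinoic acid, stood at 8.91 and 4.14, and Isl1, a factor of pharyngeal progenitors, at 5.53 and 9.62. Wnt5a, the most abundant, had -0.26.

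**Figure D3:**
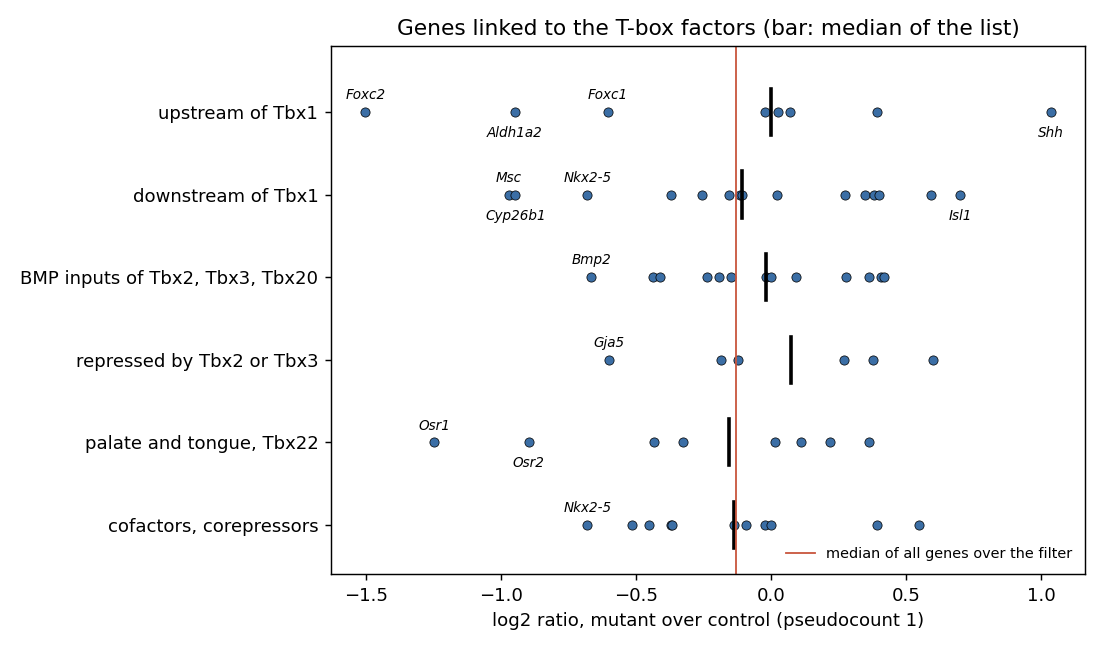
Log2 ratios (mutant over control) of the genes over the filter in 6 lists linked to the T-box factors, 1 point per gene, with a black bar at the median of each list and a red line at the median of all genes (-0.13). Labels mark the genes furthest from 0. Every list has points on both sides of the red line, and the list medians lie between -0.16 and 0.07.

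Tbx2 showed almost the same FPKM in both libraries. The gene (chromosome 11, 85832615 to 85841948) gave 51.5 FPKM (50.1 to 53.0) in control RNA against 52.7 (51.3 to 54.2) in mutant RNA, from about 4628 and 5052 fragments. The ratio was 1.02 (0.982 to 1.06), with a log2 ratio of 0.03. Relative to the median gene this was 0.16 higher, and Tbx2 lay above the median gene in all 13 settings tried, by 0.03 to 0.20.

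Tbx3, the paralog of Tbx2 on chromosome 5 (119670669 to 119684601), was the member with the highest ratio among those over the filter. It gave 18.6 FPKM (17.8 to 19.4) in control RNA against 26.4 (25.6 to 27.3) in mutant RNA, from about 2236 and 3449 fragments. The ratio was 1.42 (1.348 to 1.501), a log2 ratio of 0.49 that 480 genes exceeded. The difference lay above the median gene in all 13 settings, by 0.48 to 0.66. All 8 epithelial markers were above 0 (0.06 to 0.56) and so above the median gene, with a summed level of 139 and 178 FPKM, and the part of the epithelium in the value of Tbx3 was not tested.

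The 3 deposited transcripts of Tbx3 differ in a short exon that is known to lengthen the T-box of the Tbx3+2a isoform. The exon spans 60 bases, chr5:119675243-119675302 on the plus strand of GRCm38, exon 3 of 8 in GENCODE, and codes for 20 amino acids. It is printed in capitals between the last 15 bases of exon 2 and the first 15 of exon 4.
Tbx3 short exon: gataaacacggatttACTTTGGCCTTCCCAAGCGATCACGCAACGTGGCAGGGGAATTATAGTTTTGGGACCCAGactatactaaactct
Lengths place it in the transcript of 5082 bases, which exceeds the same structure without it by 60 bases, and leave it out of those of 5022 and 4654 bases. The form with the exon gave 5.79 FPKM in control RNA against 5.68 in mutant RNA. The forms without it stood at 3.67 and 9.03 (5022 bases) and at 9.12 and 11.7 (4654 bases), or 12.8 and 20.7 together. The share of Tbx3 FPKM with the exon was thus 31.2% and 21.5%. In the deposited values, the excess of Tbx3 in the mutant library thus lies in the forms without the exon. Because the forms share nearly all of their bases, the split rests on the few fragments that touch the exon or the first exons, and it is an estimate of the authors' tool with no error given.

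**Figure D4:**
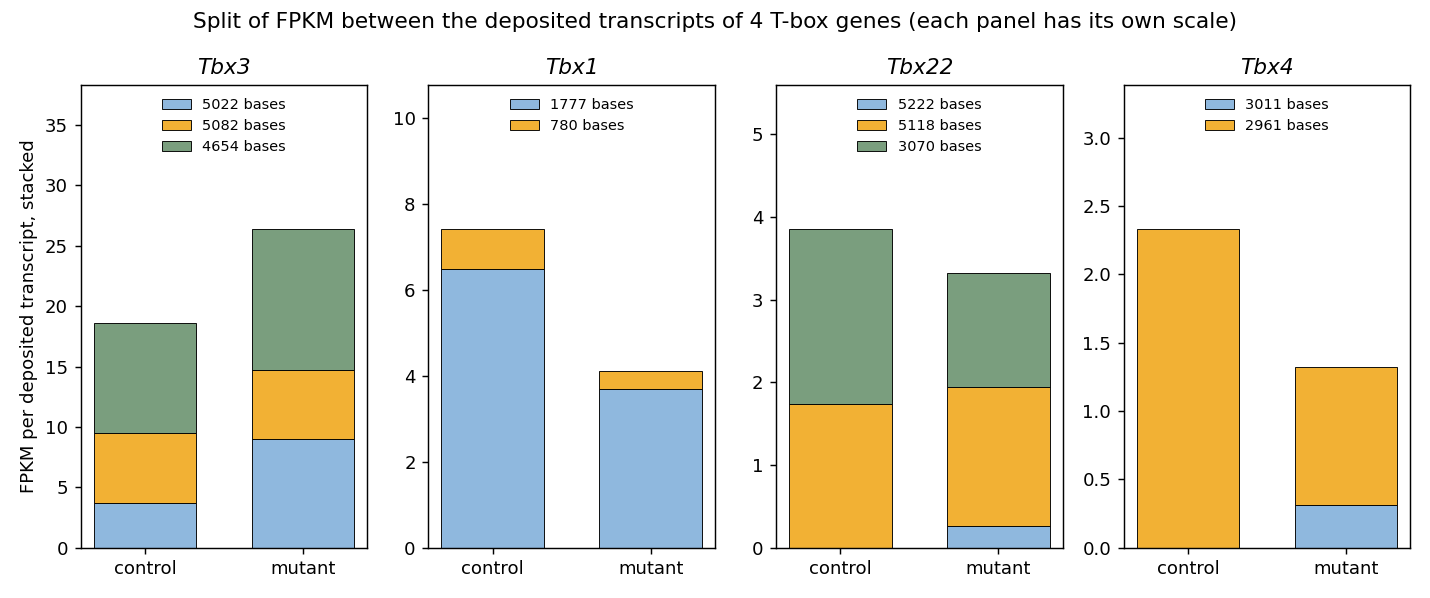
FPKM of each deposited transcript, stacked per library, for Tbx3, Tbx1, Tbx22 and Tbx4; the scales start at 0 and differ between panels. In Tbx3 the transcript of 5082 bases (orange) has nearly the same height in both bars. In Tbx22 and Tbx4 a transcript close to 0 in the control is assigned FPKM in the mutant. The split between overlapping transcripts is an estimate of the authors' tool.

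The BMP side of Tbx2, Tbx3 and Tbx20 showed no common direction. Of 13 BMP ligands, feedback genes and mesenchymal factors 13 passed the filter, 6 above and 7 below 0, with a median of -0.02. On the log2 scale 0 were past 2-fold, and by the FPKM ratio 1 was, Bmp2, which was lower. Msx2, a homeobox target of BMP signals, stood at 25.7 and 34.7 FPKM. Bmp2 stood at 1.47 and 0.556 FPKM, a ratio of 0.379 (0.251 to 0.560), Bmp5 had a log2 ratio of -0.44, and Id3, the most abundant, -0.24. Of 9 genes reported as repressed by Tbx2 or Tbx3, 6 passed the filter, 3 above and 3 below 0, with a median of 0.07. Again 0 were past 2-fold on the log2 scale and 1 by the FPKM ratio, Gja5, which was lower. Cdkn1a, the cell cycle inhibitor gene, stood at 4.27 and 6.98 FPKM, a ratio of 1.63 (1.37 to 1.95). Gja5, a gap junction gene that vessels also express, stood at 2.02 and 0.993 FPKM, a ratio of 0.491 (0.371 to 0.645). Gja1, a gap junction gene and the most abundant of the list, had a log2 ratio of -0.12.

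Tbx22 lay near the median gene. It spans 107667964 to 107688980 on chromosome X and gave 3.86 FPKM (3.49 to 4.26) in control RNA against 3.32 (2.995 to 3.67) in mutant RNA, from about 390 and 386 fragments. The ratio was 0.860 (0.745 to 0.992), with a log2 ratio of -0.17, or -0.04 relative to the median gene. Its sign depended on the scaling, at 0.32 with TPM-like scaling and 0.04 when transcripts under 200 bases were left out of that scaling. The palate and tongue genes linked to it were mixed. Of 8 genes over the filter, 4 were above and 4 below 0, with a median of -0.16. Osr1, a zinc finger factor of the tongue and palate mesenchyme, was at least 2-fold lower at 36.8 and 14.9 FPKM. Its relative Osr2 stood at 11.7 and 5.83, at least 2-fold lower by the FPKM ratio only, at 0.497 (0.427 to 0.579). Barx1, the most abundant, had a log2 ratio of -0.43.

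Within Tbx22 the 3 deposited transcripts begin at different places, and their values did not move together. The transcript of 5118 bases stood at 1.73 and 1.69 FPKM, and the shortest, of 3070 bases, at 2.13 and 1.37. The one of 5222 bases, from the most upstream start, stood at 9.21e-05 FPKM in the control, below the yield of 1 fragment, and at 0.257 in the mutant, on about 36 fragments. Its share of the gene in the mutant was 7.74%. Because these transcripts overlap, the split of FPKM and fragments between them is an estimate of the authors' tool with no error given. Use of the upstream start was not tested. RefSeq (GRCm38.p6) holds a promoter for each of these 3 starts. The 150 bases before each start are printed because they separate the transcripts, with those of Tbx18 for comparison and every CG dinucleotide in capitals.
Tbx22, transcript of 5222 bases: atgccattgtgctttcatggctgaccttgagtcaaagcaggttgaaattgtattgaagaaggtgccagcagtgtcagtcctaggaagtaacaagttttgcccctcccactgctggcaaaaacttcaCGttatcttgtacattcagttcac
Tbx22, transcript of 5118 bases: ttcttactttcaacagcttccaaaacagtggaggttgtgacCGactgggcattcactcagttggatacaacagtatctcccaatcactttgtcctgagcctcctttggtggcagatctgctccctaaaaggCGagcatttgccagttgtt
Tbx22, transcript of 3070 bases: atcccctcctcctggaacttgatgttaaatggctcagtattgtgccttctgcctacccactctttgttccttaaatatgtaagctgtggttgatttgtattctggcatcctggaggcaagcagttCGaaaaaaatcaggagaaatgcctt
Tbx18: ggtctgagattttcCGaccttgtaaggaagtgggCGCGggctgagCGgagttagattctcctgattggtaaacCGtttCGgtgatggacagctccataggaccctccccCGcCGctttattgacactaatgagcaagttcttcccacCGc
The Tbx22 stretches lie at chrX:107667814-107667963, chrX:107676362-107676511 and chrX:107678865-107679014 on the plus strand, and that of Tbx18 at chr9:87731261-87731410 on the minus strand. In the 250 bases before the start, the 3 Tbx22 promoters held 1, 2 and 1 CG dinucleotides and the Tbx18 promoter 15. The median over 32851 promoters was 6, and the 25th and 75th percentiles were 2 and 16, so the Tbx18 count lay between these percentiles. The windows of the other members held 17 and 10 (Tbx1), 6 (Tbx4) and 22 (Tbx20). Promoters were found for 5 of the 9 members (Tbx1, Tbx4, Tbx18, Tbx20 and Tbx22), in 8 windows. In these windows, 0 of 8 held the T-box core site GGTGTGA, the GLI site GACCACCCA or the forkhead site TGTTTAC on either strand. Of all promoters, 3.33%, 0.225% and 3.17% held them in the same length.

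Tbx4 was lower in the mutant by about as much as Tbx1. Tbx4 (chromosome 11, 85890063 to 85916097) gave 2.34 FPKM in control RNA against 1.32 in mutant RNA, from about 176 and 105 fragments. It was 1.77-fold lower (1.38 to 2.27), a log2 ratio of -0.52 with 936 genes below it. In the deposited values, the difference lay in the transcript of 2961 bases, at 2.34 and 1.01 FPKM. The transcript of 3011 bases, from a start further upstream, stood at 5.12e-05 and 0.312 FPKM, on about 0 and 25 fragments. As these transcripts overlap, their split is again an estimate of the authors' tool with no error given. GENCODE places Tbx4 44.5 kb behind Tbx2, so these neighbours stood at ratios of 0.566 (0.440 to 0.725) and 1.02.

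Tbx5 and Tbx20 were close to the limit of detection. Tbx5, which lies 148 kb behind Tbx3 (119834663 to 119885218), gave 0.105 FPKM (0.0505 to 0.194) in control RNA against 0.00823 (0.000209 to 0.0459) in mutant RNA. These values rest on about 10 fragments and 1 fragment, and the ratio of 0.0782 had an interval from 0.00180 to 0.549. Tbx20 (chromosome 9, 24720812 to 24774303, minus strand) went the other way, at 0.0889 and 0.279 FPKM on about 13 and 35 fragments. The ratio was 3.13 (1.62 to 6.46). Of its 4 transcripts, the one of 6436 bases had 0.080 and 0.182 FPKM. Of 8 cardiac markers, 1, Nkx2-5 (2.72 and 1.32 FPKM), passed the filter, and the summed level was 4.38 and 3.05 FPKM. The others stayed at or under 0.924 FPKM in both libraries and went both ways. Myl7, Nppa and Gata4 were higher in the mutant library, and Myh6, Myh7, Tnnt2 and Hcn4 lower.

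The remaining T-box genes gave little signal. Of 8 others in the family (T, Tbr1, Eomes, Tbx6, Tbx10, Tbx19, Tbx21 and Mga), 1 passed the filter. Mga, a large dual-domain partner of Max, stood at 12.7 and 16.4 FPKM, with a log2 ratio of 0.35 that was -0.02 once the length trend was removed. Its main transcript has 13931 bases. Tbx6 stood at 0.274 and 0.128 FPKM, Tbx19 was listed at 0 in both libraries, and the other 5 stayed at or under 0.0975 FPKM in both. Of 14 T-box cofactors and corepressors, 11 passed the filter, 2 above and 9 below 0, or 5 above and 6 below the median gene, with a median of -0.14 beside -0.13 for all genes. On the log2 scale 0 were past 2-fold, and by the FPKM ratio 1 was, Nkx2-5, at 2.72 and 1.32 FPKM. The Groucho family genes Tle2 and Aes had log2 ratios of 0.55 and -0.51. Nkx2-5, a heart and pharyngeal partner of Tbx5 and Tbx20, had -0.68 and Hdac2, the most abundant, -0.14.

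**Figure D5:**
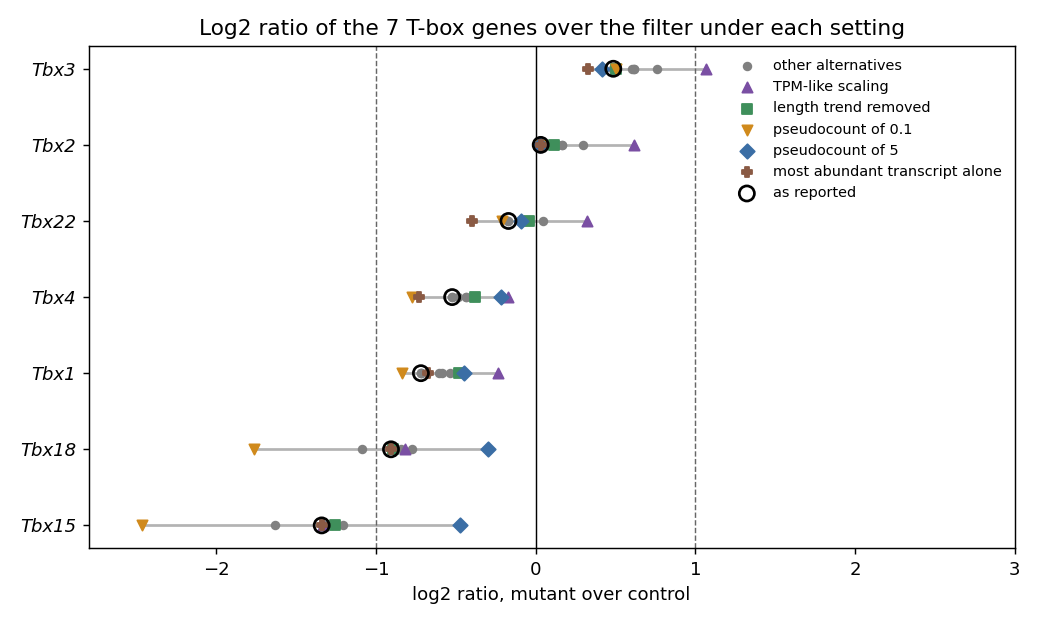
Log2 ratio (mutant over control) of the 7 T-box genes over the filter as reported (open circles) and under each alternative (symbols), with grey lines over their range and dashed lines at log2 ratios of -1 and 1. Tbx15 runs from -2.46 to -0.47 and Tbx18 from -1.76 to -0.30, with the 2 pseudocounts at the ends, and Tbx22 lies on both sides of 0.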

How the data were processed

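RNA was measured in 2 libraries, 1 control and 1 mutant, grouped by the genotype label. Per the naming of the deposited tables, the authors estimated transcript FPKM with Cufflinks; no source used here names its version, the aligner or the strandedness. Per the file headers, coverage is a signal of mean depth per transcript. The submitters' processing notes name mm9, but of 45475 transcripts with a symbol in GENCODE M21 (GRCm38), 72.1% had its start or end once 1 was added to the deposited starts (51.8% of starts matched with it and 4.6% without). Coordinates are therefore 1-based on GRCm38. Lines with displaced columns (65 per deposited file) were left out, which left 59055 transcripts. FPKM was summed per gene symbol with pandas 2.3.3 in Python 3.11.15.

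Fragments were approximated as coverage times length divided by 156 bases (control) or 153 (mutant), the median of values from 80 to 220 bases in genes with 1 transcript over 1500 bases, so they are approximate. Intervals (95%, scipy 1.17.1) cover counting error only. The length trend was a running median over 501 genes ranked by length. The ratio, interval and trend were tried on simulated counts with known changes, counting error and a set length trend. Those counts held no variation between embryos, dissections or library preparations, and no error in assigning fragments to transcripts. With 1 library per group no test was made. The members and lists were chosen with earlier results of these data known. All members and other T-box genes are named, and of each linked list up to 3 genes with the largest absolute log2 ratio and the most abundant; Foxc1 is named in a plot only, and Myog, Myod1, Tubb3 and Nefl were named after their values were seen. Some genes that this rule names are not reported here. With 2 libraries a pattern is 1 ratio, so no gene is named as most alike. The alternatives were 10 planned and 3 chosen after seeing the data (coverage in place of FPKM, transcripts marked OK only, and 2-fold counts by the FPKM ratio with no pseudocount). Promoters are RefSeq's and coding sequences GENCODE's.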

Additional observations from a re-analysis of the deposited data

How the results depend on the processing

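No paired analysis was possible because each group has 1 library, and no library could be left out. Relative to the median gene of the same setting, Tbx1, Tbx4, Tbx15, Tbx18 and Tbx22 stayed below and Tbx2 and Tbx3 above in every setting that kept them. For Tbx22 the distance ran from -0.25 to -0.0014, so at its smallest Tbx22 lay almost on the median gene. The log2 ratios that moved past their counting interval are given by setting. That interval was computed at a pseudocount of 1 on the deposited scaling. Other pseudocounts and scalings therefore shift the ratios by construction. Why ratios moved in the remaining settings was not tested. With a pseudocount of 0.1, Tbx4 had -0.78, Tbx15 -2.46 and Tbx18 -1.76, with 2 members at least 2-fold lower. With a pseudocount of 5, Tbx1 had -0.45, Tbx4 -0.21, Tbx15 -0.47 and Tbx18 -0.30, with 0 members 2-fold lower. TPM-like scaling gave Tbx1 -0.24, Tbx2 0.61, Tbx3 1.07, Tbx4 -0.175 and Tbx22 0.32, a change of sign, with 1 member at least 2-fold higher. Without transcripts under 200 bases it gave Tbx2 0.30, Tbx3 0.76, Tbx15 -1.63, Tbx18 -1.09 and Tbx22 0.043, again a change of sign, with 2 members at least 2-fold lower. Centring on the median gene gave Tbx2 0.16 and Tbx3 0.62, scaling to the 75th percentile 0.17 and 0.62, and coverage in place of FPKM 0.13 and 0.60. Removing the length trend gave Tbx1 -0.48 and Tbx2 0.12. The most abundant transcript alone gave Tbx3 0.33, Tbx4 -0.73 and Tbx22 -0.40. A mean FPKM of 5 or more kept Tbx1, Tbx2 and Tbx3 and left 0 members 2-fold lower. Over all genes, 94 were 2-fold higher and 167 lower as reported, 581 and 85 with TPM-like scaling (median gene 0.41 in place of -0.13), 230 and 142 without its short transcripts, 132 and 129 when centred, 125 and 137 scaled to the 75th percentile, 129 and 106 with the length trend removed, 179 and 312 with a pseudocount of 0.1, and 191 and 348 by the FPKM ratio with no pseudocount, which put 2 members at least 2-fold lower. About 35 to 53 fragments lay behind the mutant values of Tbx15 and Tbx18, and 1 behind that of Tbx5.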
